A study of Triticum aestivum with 12 samples.

Results

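Anthers of unstressed ‘Mv 17-09’ and ‘Ellvis’ plants were compared, which gave 6 control libraries of the 12 libraries in the series, 3 per cultivar. Both are winter wheats, and the study treats ‘Mv 17-09’ as heat-sensitive and ‘Ellvis’ as heat-tolerant. Control plants stayed under the normal growing conditions and their main spikes were harvested at the onset of male meiosis, at the stage of plants that had received 24 h at 35 °C. The 6 heat-stressed libraries of both cultivars entered the fit and are described only beside the control values. Each cultivar is 1 genotype. The libraries are called biological replicates by the study, and which plants went into which library is not stated, so a p-value here rests on the spread between libraries, which may be technical.

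An anther holds the meiocytes, which replicate their DNA, pair and recombine homologous chromosomes and then divide on spindles. It also holds the tapetum, a nurse layer that makes enzymes, lipids and sporopollenin for the pollen wall and later dies by a programmed path. Bread wheat carries each gene in up to A, B and D copies, called homoeologs, whose transcripts are alike in sequence. The RNA of all anther tissues was sequenced together, so fewer cells of a type and less RNA per cell cannot be told apart.

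Ellvis control replicate 1 stood apart. Its total was 1831675 counts, where the other 11 libraries had 9336312 to 20846135. At a common total of 1831675 counts it had a count in 121643 gene models, against 70861 to 80983 in the others, and the Spearman correlation with its own group was 0.778. The biological coefficient of variation was 0.0851 in Mv 17-09 controls and 0.409 in Ellvis controls, or 0.0731 without that library. The tapetum markers were the families TDF1, MS188, ACOS5, CYP703A2, CYP704B1, PKSA, PKSB, TKPR1, MS2 and ABCG26. The meiocyte markers were ASY1, DMC1, AtSPO11-1, SPO11-2, AtMSH4, AtMSH5, AtMER3, AtZIP4, SDS, PTD and SYN1. Summed levels of 34 tapetum marker genes, 2 of them at 0 in every control, were 21334 to 24045 CPM (each library brought to the same total) in Mv 17-09 controls, and 34990, 17335 and 18557 CPM in Ellvis controls 1, 2 and 3. Summed levels of 34 meiocyte marker genes, none of them at 0 in every control, were 163 to 189 CPM in Mv 17-09 controls, and 138, 230 and 232 CPM in Ellvis controls 1, 2 and 3. The part of these marker levels in the results was not tested. Results of the control comparison that rest on Ellvis control 1 are given with and without it.

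Of 70527 gene models tested, 4112 were higher and 4954 lower in Mv 17-09 controls. A gene is called when it changes 2-fold or more and its adjusted p (edgeR quasi-likelihood test, Benjamini-Hochberg) is under 0.05. The calls make up 5.83% and 7.02% of the genes tested (12.9% in both directions). Without Ellvis control 1 the counts were 5742 higher and 5333 lower of 73743 tested, or 7.79% and 7.23%, and 8535 of the 9066 calls were kept with 0 in the opposite direction. Lists of meiosis, spindle, actin and tapetum genes, 884 gene models in all, had 683 tested members, of which 15 were higher and 34 lower. That is 7.17% called, where the background is 12.9%. The background was 11.4% in high-confidence gene models of the annotation and 18.6% in low-confidence ones. The median log2 fold change was -0.11 over the list members and -0.01 over all genes tested. Leaving out Ellvis control 1 gave the lists 20 higher and 36 lower, and 37 of the 49 calls were kept. Of the 683 members tested, 101 had all Mv 17-09 controls above all Ellvis controls and 113 had them all below (14.8% and 16.5%), beside 17.8% and 15.7% of all genes tested.

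**Figure D1:**
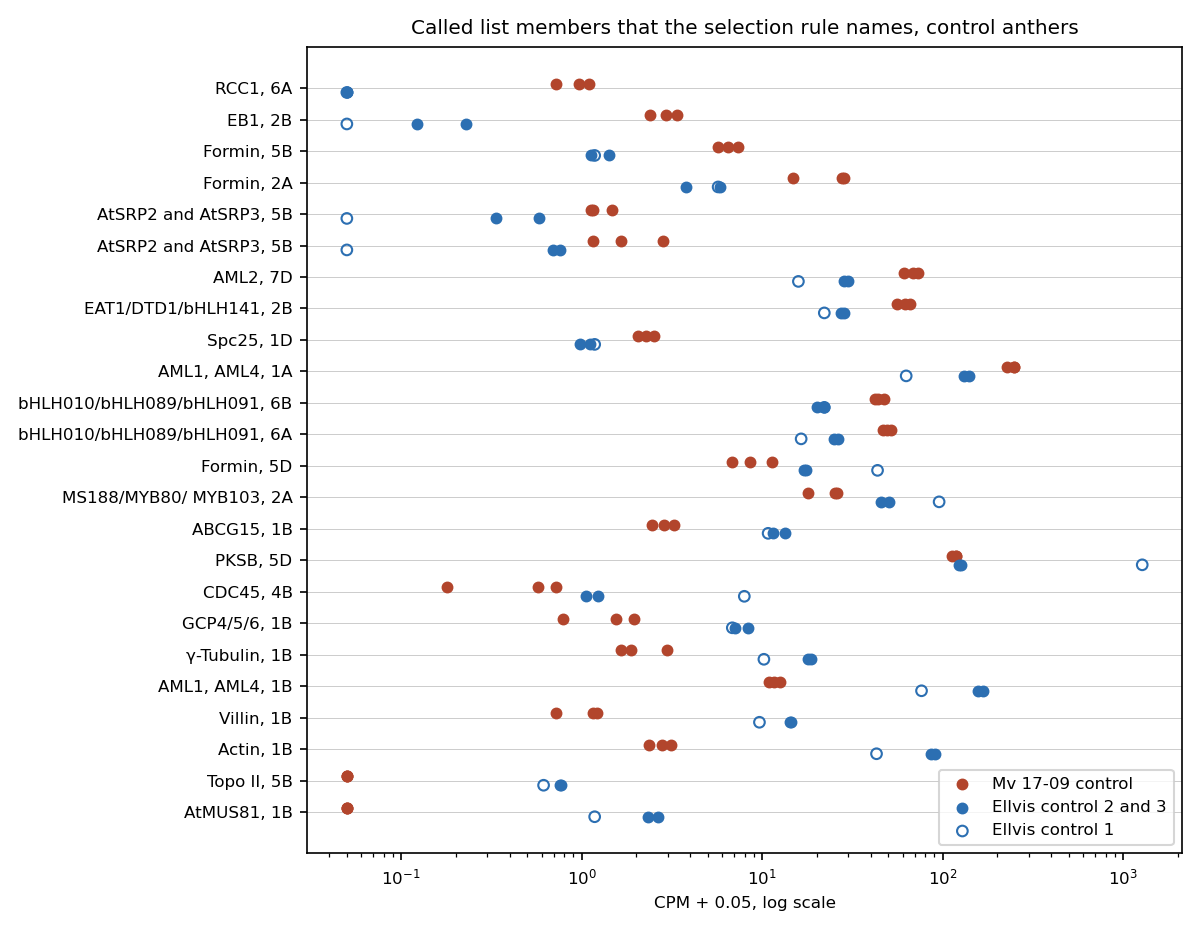
CPM plus 0.05 on a log axis for each control library of the 24 called list members that the selection rule names, ordered by log2 fold change. Red points are Mv 17-09 controls, filled blue points Ellvis controls 2 and 3 and open blue points Ellvis control 1, which lies away from the other 2 Ellvis points for PKSB on 5D, CDC45 on 4B and the formin on 5D.

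The Mei2-like genes, RNA-binding proteins that Arabidopsis needs for meiosis, held some of the clearest cultivar differences of the list. The largest of these, on 1B, lies in a stretch of that chromosome where 708 of 900 tested genes were lower in Mv 17-09 controls. Of 158 tested members of the 209 in the list, 4 were higher and 10 lower in Mv 17-09 controls (2.53% and 6.33%, beside 5.83% and 7.02% of all genes), and the median log2 fold change was -0.19. Without Ellvis control 1 there were 3 higher and 13 lower. The higher count was 2 without Mv 17-09 control 2 or Ellvis control 3, and the lower count was 6 without Mv 17-09 control 3.

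The AML1, AML4 copy on 1B (TraesCS1B03G0015900) had 10.8, 11.5 and 12.6 CPM in Mv 17-09 controls, against 76.3, 156 and 166 CPM in Ellvis controls. The groups lay far apart, with a log2 fold change of -3.54 ± 0.24 (SE) and an adjusted p of 2.89e-08. Its homoeolog on 1A (TraesCS1A03G0016300; chromosome 1A, 4379076 to 4386587) went the other way, with 247, 248 and 228 CPM in Mv 17-09 controls and 62.7, 130 and 140 CPM in Ellvis controls. That difference, 1.09 ± 0.22 on the log2 scale (adjusted p = 0.00169), was 0.84 without Ellvis control 1 (adjusted p = 8.32e-08) and then under 2-fold. The 1D copy (TraesCS1D03G0008200) had 172, 184 and 169 CPM in Mv 17-09 controls against 80.8, 114 and 127 CPM in Ellvis controls, without overlap and under 2-fold (log2 fold change 0.69, adjusted p = 0.00582). AML2 on 7D (TraesCS7D03G0007200; chromosome 7D, 2250859 to 2256557) had 68.8, 73.1 and 61.3 CPM in Mv 17-09 controls and 15.8, 29.8 and 28.4 CPM in Ellvis controls. It was higher by 1.38 ± 0.18 on the log2 scale (adjusted p = 3.99e-05), and the other AML2 copies, on 4A and 7A, also had all Mv 17-09 controls above all Ellvis controls, at log2 fold changes of 0.82 and 0.71 that miss the 2-fold threshold.

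Recombination genes with a call were mostly single copies at low levels. MUS81 on 1B (TraesCS1B03G0333800), whose product is an endonuclease that forms a class of crossovers, had 0 counts in all Mv 17-09 controls, against 1.13, 2.61 and 2.29 CPM in Ellvis controls. Its level was at least 33.1-fold lower in Mv 17-09 controls, with the floor set at 3 counts over that group (adjusted p = 2.25e-05). The other MUS81 model on 1B (TraesCS1B03G0281900) also had 0 counts in all Mv 17-09 controls and 0.565, 0.770 and 0.645 CPM in Ellvis controls, and was tested only without Ellvis control 1, where it was lower. MRE11 on 2D (TraesCS2D03G1185400; chromosome 2D, 620317667 to 620323362), which trims the ends of double-strand breaks, had 1.74, 1.57 and 1.30 CPM in Mv 17-09 controls and 5.65, 6.99 and 6.16 CPM in Ellvis controls. The log2 fold change was -2.06 ± 0.25 (adjusted p = 1.88e-05). RAD51C on 2D and DMC1 on 5A, both of the strand-exchange protein family, were lower by -1.88 and -1.41, and the cultivars overlapped in neither. The other DMC1 copies, on 5B and 5D, had log2 fold changes of 0.01 and -0.55 and were not called.

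SYN3, a cohesin subunit, was lower in 3 of its 5 genes, on 5A, 5B and 5D, at log2 fold changes of -1.13, -1.24 and -1.17, and the other genes had -0.13 and 0.31 without a call. MEI1 on 4D, annotated as a topoisomerase 2-binding protein, was lower by -1.30, although Ellvis control 1 lay below all Mv 17-09 controls. With that library left out, the 5A and 5D copies of SYN3 were at -0.98 and -0.97 and lost the call on the 2-fold threshold. CDC45 on 4B, a part of the replicative helicase, had 0.671, 0.525 and 0.130 CPM in Mv 17-09 controls and 7.91, 1.19 and 1.003 CPM in Ellvis controls. It passed with all libraries (log2 fold change -2.19, adjusted p = 0.0434) and not without Ellvis control 1 (-1.29, adjusted p = 0.0512). Serpins are protease inhibitors, and 45 genes are listed with AtSRP2 and AtSRP3 of Arabidopsis. Of the 11 tested, 2 were called, both higher and on 5B (18.2%, beside 5.83% of all genes). Summed over the 45 genes, the level was 15.4, 16.9 and 17.9 CPM in Mv 17-09 controls. In Ellvis controls it was 31.1, 11.4 and 9.38 CPM, so the cultivars overlapped. TraesCS5B03G1020700 had 1.07, 1.42 and 1.11 CPM in Mv 17-09 controls and 0, 0.533 and 0.287 CPM in Ellvis controls, at a log2 fold change of 1.61 (adjusted p = 0.0175). TraesCS5B03G0818200 had 1.61, 2.78 and 1.11 CPM in Mv 17-09 controls and 0, 0.711 and 0.645 CPM in Ellvis controls, at 1.55 (adjusted p = 0.0382). The call of TraesCS5B03G1020700 was lost without Mv 17-09 control 2 (adjusted p = 0.0703) or Ellvis control 3 (adjusted p = 0.0925). That of TraesCS5B03G0818200 was lost without Mv 17-09 control 1 or 2 or Ellvis control 2 or 3, at adjusted p of 0.0606, 0.205, 0.0893 and 0.0967.

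Spindle genes with a call included NDC80 complex and SKA3 genes of the kinetochore, the protein complex that ties chromosomes to microtubules. Single copies of EB1 and γ-tubulin and 2 KIN-13A genes were called as well. Of 341 tested members of the 383 listed, 3 were higher and 14 lower (0.880% and 4.11%), and the median log2 fold change was -0.09. Without Ellvis control 1 the counts were 3 and 17. The kinetochore and centromere group had 1 higher and 6 lower of 32 tested, or 21.9% called beside 12.9% of all genes, at a median of -0.38, and none of these 7 calls was lost without Ellvis control 1. The 39 tubulin genes tested, and the 26 tested genes of microtubule severing enzymes had no call, with or without Ellvis control 1. The α-tubulin gene with the highest CPM, which is not scaled for gene length (TraesCS1D03G0830200), had 622, 619 and 628 CPM in Mv 17-09 controls and 323, 659 and 625 CPM in Ellvis controls, which overlap (log2 fold change 0.21). The α-tubulin gene next to it by CPM (TraesCS1A03G0858500) had 616, 620 and 618 CPM in Mv 17-09 controls and 302, 585 and 548 CPM in Ellvis controls, without overlap and with an adjusted p of 0.245.

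Within the kinetochore group, the calls lay in the NDC80 complex, which grips the microtubule, and in SKA3, which helps it to hold on. SPC25 copies moved in both directions. SPC25 on 1D (TraesCS1D03G0059900; chromosome 1D, 12729469 to 12733052) had 2.01, 2.47 and 2.21 CPM in Mv 17-09 controls and 1.13, 1.07 and 0.931 CPM in Ellvis controls, a log2 fold change of 1.14 ± 0.26 (adjusted p = 0.0055). SPC25 on 3D had 0.335, 0.577 and 0.391 CPM in Mv 17-09 controls against 1.13, 2.13 and 1.58 CPM in Ellvis controls, a log2 fold change of -1.98 ± 0.37 (adjusted p = 0.00107). The 3A copy was lower as well, by -1.35, and the 3B copy had 0.67 and no call. NUF2 on 6B was lower by -1.51, both NDC80 copies on 5D by -1.12 and -1.29, and SKA3 on 5D by -1.32. Summed over its 5 genes, NDC80 had 9.93, 11.96 and 11.98 CPM in Mv 17-09 controls and 23.2, 19.5 and 19.6 CPM in Ellvis controls. The sum over the 4 SKA3 genes was 2.15, 1.84 and 2.15 CPM in Mv 17-09 controls and 4.52, 4.09 and 3.80 CPM in Ellvis controls. Neither sum overlapped between the cultivars. Of the sums of all 154 listed families, 30 had all Mv 17-09 controls below all Ellvis controls and 20 had them all above. All kinetochore members with a call stayed under 10 CPM in both cultivars.

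Outside the kinetochore, EB1 on 2B (TraesCS2B03G1381500; chromosome 2B, 754558699 to 754562109), which tracks growing microtubule ends, was higher. It had 2.88, 3.30 and 2.34 CPM in Mv 17-09 controls and 0, 0.178 and 0.0716 CPM in Ellvis controls (log2 fold change 4.45 ± 0.46, adjusted p = 3.29e-06). Its A copy was at -0.66 without a call. A gene listed under RCC1 but annotated as UVR8-like, the plant ultraviolet-B receptor (TraesCS6A03G0369000), had 0.671, 1.05 and 0.912 CPM in Mv 17-09 controls and 0 counts in all Ellvis controls. It was at least 9.53-fold higher, with the floor at 3 counts over the Ellvis controls (adjusted p = 0.00127). A DNA topoisomerase 2-like gene on 5B (TraesCS5B03G0157000), of the enzymes that untangle DNA, had 0 counts in all Mv 17-09 controls and 0.565, 0.711 and 0.716 CPM in Ellvis controls, at least 10.9-fold lower (adjusted p = 0.00264). The condensin gene CAP-H on 6B was lower by -1.21, and its 6A and 6D copies had -0.96 and -0.84 without a call, where 6A was called without Ellvis control 1 (-1.08). MAD1 on 3D, a checkpoint protein, had 27.6, 26.1 and 23.2 CPM in Mv 17-09 controls and 72.9, 43.2 and 45.5 CPM in Ellvis controls. Its log2 fold change of -1.01 was -0.79 without Ellvis control 1, and the call was lost. APC7 on 1B, of the complex that starts anaphase, had 0.671, 0.944 and 0.847 CPM in Mv 17-09 controls and 0.565, 5.27 and 4.44 CPM in Ellvis controls (-2.36, adjusted p = 0.000163), with Ellvis control 1 at the level of Mv 17-09. KIN-13A on 3B, of the kinesins that shorten microtubules, was at -1.04, or at -0.96 with no call when Ellvis control 1 was left out.

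Among actin monomers and depolymerising factors, the calls were 1 of 18 and 1 of 35 tested genes, both on 1B, while formins, which start and lengthen actin filaments, differed in both directions. Of 80 tested members of the 108 listed, 2 were higher and 5 lower (2.50% and 6.25%), with a median log2 fold change of -0.06. Without Ellvis control 1 there were 3 higher and 3 lower, and without Mv 17-09 control 1 there were 2 and 3. The actin nucleation group of this list consists of formins only. Of its 14 tested genes 5 were called, or 35.7% beside 12.9% of all genes, and 3 of these 5 were kept without Ellvis control 1.

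The formin on 2A (TraesCS2A03G0453100; chromosome 2A, 201808672 to 201810391) had 28.4, 14.7 and 27.5 CPM in Mv 17-09 controls and 5.65, 5.81 and 3.73 CPM in Ellvis controls (log2 fold change 2.26 ± 0.35, adjusted p = 0.000219). The formin on 5B (TraesCS5B03G0822900) had 7.31, 5.61 and 6.45 CPM in Mv 17-09 controls and 1.13, 1.36 and 1.07 CPM in Ellvis controls (2.39 ± 0.43, adjusted p = 0.000756). Leaving out Ellvis control 1 put them at 2.27 and 2.38 and kept their calls. The formin on 7B (TraesCS7B03G1192900) had 0, 0.0525 and 0.0651 CPM in Mv 17-09 controls and 0, 1.72 and 3.30 CPM in Ellvis controls, where the 0 of Ellvis control 1 overlaps with Mv 17-09. The formin on 5A (TraesCS5A03G0991800) had 11.8, 15.7 and 15.7 CPM in Mv 17-09 controls and 260, 15.1 and 16.8 CPM in Ellvis controls. Its call (log2 fold change -2.56, adjusted p = 0.0306) came from Ellvis control 1 and was -0.14 without it (adjusted p = 0.661). The formin on 5D (TraesCS5D03G0745900) was at -1.31, or at -0.94 with no call when that library was left out.

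The actin-97-like gene on 1B (TraesCS1B03G0048800; chromosome 1B, 12376413 to 12379636) had 3.08, 2.31 and 2.73 CPM in Mv 17-09 controls and 42.9, 85.7 and 90.6 CPM in Ellvis controls. At -4.80 ± 0.25 on the log2 scale (adjusted p = 1.7e-09) it was the only call among the 18 actin monomer genes tested. The villin-1-like gene on 1B (TraesCS1B03G0333400), whose product bundles and cuts filaments, had 0.671, 1.10 and 1.17 CPM in Mv 17-09 controls and 9.60, 14.3 and 14.5 CPM in Ellvis controls (-3.77 ± 0.22, adjusted p = 6.71e-09). The actin list members with the highest CPM were 2 genes of actin-depolymerizing factor. TraesCS5D03G1080100 had 128, 134 and 122 CPM in Mv 17-09 controls and 81.4, 144 and 141 CPM in Ellvis controls. TraesCS5A03G1126800 had 119, 119 and 117 CPM in Mv 17-09 controls and 69.5, 123 and 125 CPM in Ellvis controls. Both overlapped between the cultivars and had no call.

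EAT1-like transcription factors of the tapetum had higher values and MS188 and TIP2 lower values in Mv 17-09 controls. Of 119 tested members of the 202 listed, 6 were higher and 5 lower (5.04% and 4.20%), with a median log2 fold change of -0.09. The balance of this list depends on single libraries, with 11 higher and 3 lower without Ellvis control 1, and 3 higher and 12 lower without Ellvis control 2. It had 4 and 8 without Ellvis control 3, and 6 and 2, 3 and 2, and 3 and 4 without Mv 17-09 control 1, 2 and 3. The transcription factor group had 3 higher and 1 lower of 26 tested, or 15.4% called, near the 12.9% of all genes. It had 2 and 1 without Ellvis control 1, and its median log2 fold change was -0.49.

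EAT1-like factors, known from rice as activators of tapetal cell death, were higher in Mv 17-09 controls. The 2B gene (TraesCS2B03G1175100; chromosome 2B, 665651614 to 665654181) had 62.1, 56.1 and 65.5 CPM in Mv 17-09 controls and 22.03, 27.2 and 28.4 CPM in Ellvis controls (log2 fold change 1.21 ± 0.16, adjusted p = 3.52e-05). Of the bHLH010/bHLH089/bHLH091 triad, the 6B copy (TraesCS6B03G0852100) had 42.05, 43.6 and 47.4 CPM in Mv 17-09 controls and 22.03, 21.8 and 20.1 CPM in Ellvis controls (1.06 ± 0.15, adjusted p = 6.35e-05). The 6A copy (TraesCS6A03G0720200) had 49.3, 46.9 and 51.4 CPM in Mv 17-09 controls and 16.4, 26.2 and 25.0 CPM in Ellvis controls (1.06 ± 0.16, adjusted p = 0.000172), and 0.94 without Ellvis control 1. Summed over the triad, the level was 138, 137 and 148 CPM in Mv 17-09 controls and 58.8, 68.9 and 75.9 CPM in Ellvis controls. The 4 EAT1 genes together had 120, 113 and 130 CPM in Mv 17-09 controls and 52.0, 61.6 and 65.5 CPM in Ellvis controls. All copies of both families that were tested had Mv 17-09 controls above Ellvis controls without overlap, as had 17.8% of all genes tested.

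Regulators other than the EAT1-like factors did not move as 1 group. The summed level of TDF1 overlapped between the cultivars (log2 ratio -0.06). That of DYT1 and AMS was at -0.53, or at -0.17 without Ellvis control 1, and that of MS1 at -0.69, or at 0.63 without that library, and none of their genes was called. MS188, also named MYB80 or MYB103, activates pollen wall genes in Arabidopsis. Its 2A copy (TraesCS2A03G0818800; chromosome 2A, 571648717 to 571650348) had 17.8, 25.8 and 25.3 CPM in Mv 17-09 controls and 95.5, 50.6 and 45.2 CPM in Ellvis controls (log2 fold change -1.40 ± 0.26, adjusted p = 0.00109), and -1.06 without Ellvis control 1 (adjusted p = 4.18e-05). The 2B and 2D copies had -0.73 and -0.69 and did not reach 2-fold, and the sum of the triad was 123, 150 and 145 CPM in Mv 17-09 controls and 343, 233 and 198 CPM in Ellvis controls. TIP2, a rice bHLH factor that acts upstream of EAT1, had a sum over 3 genes of 94.2, 94.1 and 78.1 CPM in Mv 17-09 controls and 139, 149 and 145 CPM in Ellvis controls. None of its 3 genes reached 2-fold, with log2 fold changes of -0.82, -0.56 and -0.86.

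Among the 82 tested pollen wall genes, 3 were higher and 4 lower, or 8.54% called, which is below the 12.9% of all genes. Without Ellvis control 1 there were 9 higher and 2 lower of 84, beside 7.79% and 7.23% of all genes. PKSB on 5D (TraesCS5D03G0007700), a polyketide synthase of the sporopollenin pathway, had 119, 112 and 118 CPM in Mv 17-09 controls and 1275, 124 and 126 CPM in Ellvis controls. The call (log2 fold change -2.11, adjusted p = 0.0301) was -0.10 without Ellvis control 1 (adjusted p = 0.684). PKSB on 5B (TraesCS5B03G0005500) showed the same library far above the rest, at 151, 174 and 183 CPM in Mv 17-09 controls and 1523, 162 and 170 CPM in Ellvis controls, and its value turned to 0.03 without it. The tapetum list members with the highest CPM, both ACOS5 genes of the same pathway, changed sign with that library. ACOS5 on 2B (TraesCS2B03G0757300) had 2041, 2294 and 2469 CPM in Mv 17-09 controls and 4591, 1734 and 1822 CPM in Ellvis controls, a log2 fold change of -0.26 with all libraries and 0.35 without it (adjusted p = 0.594 and 0.00997). ACOS5 on 2D (TraesCS2D03G0629900) had 1738, 1921 and 2088 CPM in Mv 17-09 controls and 3833, 1550 and 1640 CPM in Ellvis controls, at -0.29 and 0.26. The wax gene CER3 on 5A was called higher (log2 fold change 3.40, adjusted p = 0.0465), on levels of 0.469, 1.68 and 1.11 CPM in Mv 17-09 controls and 1.69, 0 and 0 CPM in Ellvis controls, where all 3 counts of the Ellvis group lay in Ellvis control 1 and overlap with Mv 17-09. CER1 on 2A and a KCS gene on 3B, of fatty acid elongation, were higher by 2.57 and 2.04 at levels of at most 1.11 CPM. CER3 on 7D was lower by -1.01, a call that was lost without Ellvis control 1 (-0.35).

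**Figure D2:**
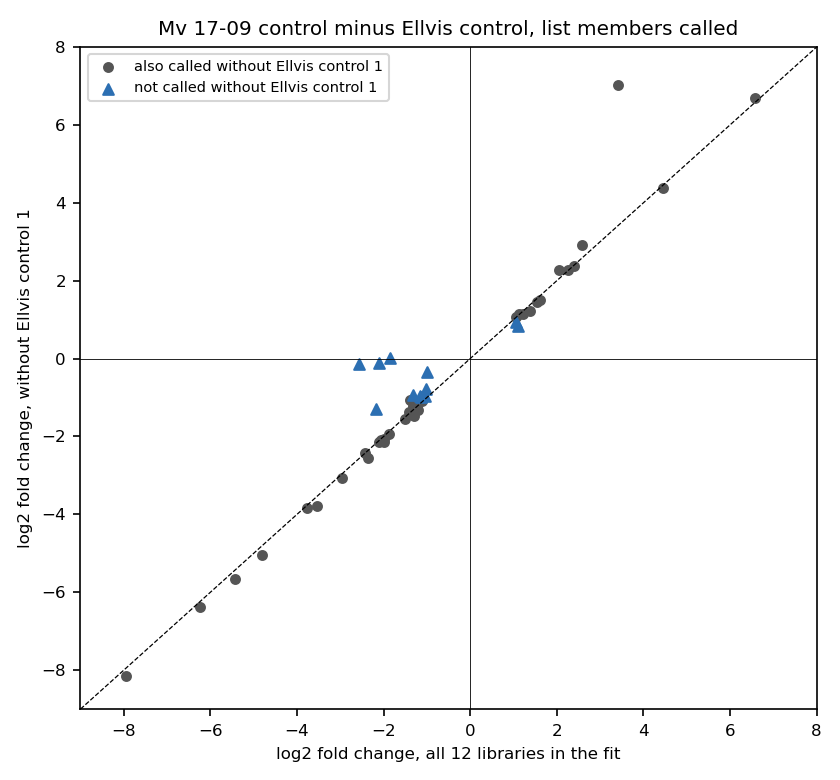
Log2 fold change of the 49 list members called between the controls, with all 12 libraries in the fit (x axis) and without Ellvis control 1 (y axis), with the dashed line marking equal values. The 12 members drawn as triangles lost their call, among them PKSB and the 5A formin, which sit near 0 on the y axis.

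The study measured a panel of genes by qPCR as well, and their values in these libraries follow. TaWRKY70 (TraesCS2A03G1143500; chromosome 2A, 727199360 to 727200951), a WRKY factor of the defence response, was the only one of 12 panel genes called between the controls. It had 12.6, 13.1 and 10.4 CPM in Mv 17-09 controls and 7.91, 2.07 and 1.79 CPM in Ellvis controls, a log2 fold change of 2.28 ± 0.36 (adjusted p = 0.000264). Ta70HSP, a heat shock cognate chaperone, had 9.66, 12.4 and 14.98 CPM in Mv 17-09 controls and 18.6, 19.7 and 20.1 CPM in Ellvis controls, which do not overlap and differ by less than 2-fold (-0.67, adjusted p = 0.0074). Ta21.9HSP, a small heat shock protein, stayed at or under 0.210 CPM in every control. The reference genes of the panel behaved differently from each other. TaACT (TraesCS5D03G0333200) had 40.9, 40.9 and 39.6 CPM in Mv 17-09 controls and 34.5, 43.2 and 42.4 CPM in Ellvis controls (-0.01, adjusted p = 0.979). TaCYC (TraesCS6D03G0139300; chromosome 6D, 42497505 to 42498402), a cyclophilin, had 199, 196 and 199 CPM in Mv 17-09 controls and 215, 394 and 419 CPM in Ellvis controls. Its log2 fold change was -0.80 ± 0.20 (adjusted p = 0.01) and -1.04 without Ellvis control 1 (adjusted p = 1.02e-09), which is past the 2-fold threshold. The primers of the called gene and of both reference genes are given because a cultivar comparison by qPCR would rest on them, 5′ to 3′ with no base marked in capitals:
TaWRKY70 forward: aatggtcgatcttcccgattg
TaWRKY70 reverse: acacatgggacggatggatg
TaCYC forward: caagccgctgcactacaagg
TaCYC reverse: aggggacggtgcagatgaa
TaACT forward: gacaatggaactggaatggtc
TaACT reverse: gtgtgatgccagattttctccat

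Calls were not spread evenly over the chromosomes. In blocks of 50 tested genes in the order of their IDs, the first 18 blocks of 1B had 30 to 50 genes lower in Mv 17-09 controls, and the next block had 4. These 900 tested genes were 82.2% called, 708 lower and 32 higher, and hold 14.3% of all lower calls. Of the 11 list members tested there, 9 were lower and 0 higher, and 11 were lower without Ellvis control 1. The 9 are AML1, AML4, MUS81, actin-97, villin, γ-tubulin, GCP4, KIN-13A, APC7 and ABCG15, whose positions run from chromosome 1B, 12376413 to 219952484, where RefSeq gives one. Outside this stretch 15 list members were higher and 25 lower of 672, or 5.95%, beside 11.96% of all genes outside it. Another 9 blocks had 20 or more calls in 1 direction. MRE11 on 2D lies in a block with 30 lower calls of 50, and the serpin TraesCS5B03G0818200 in a block on 5B with 32 higher calls of 50. The 5B formin opens the next block, which had 19 higher calls.

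**Figure D3:**
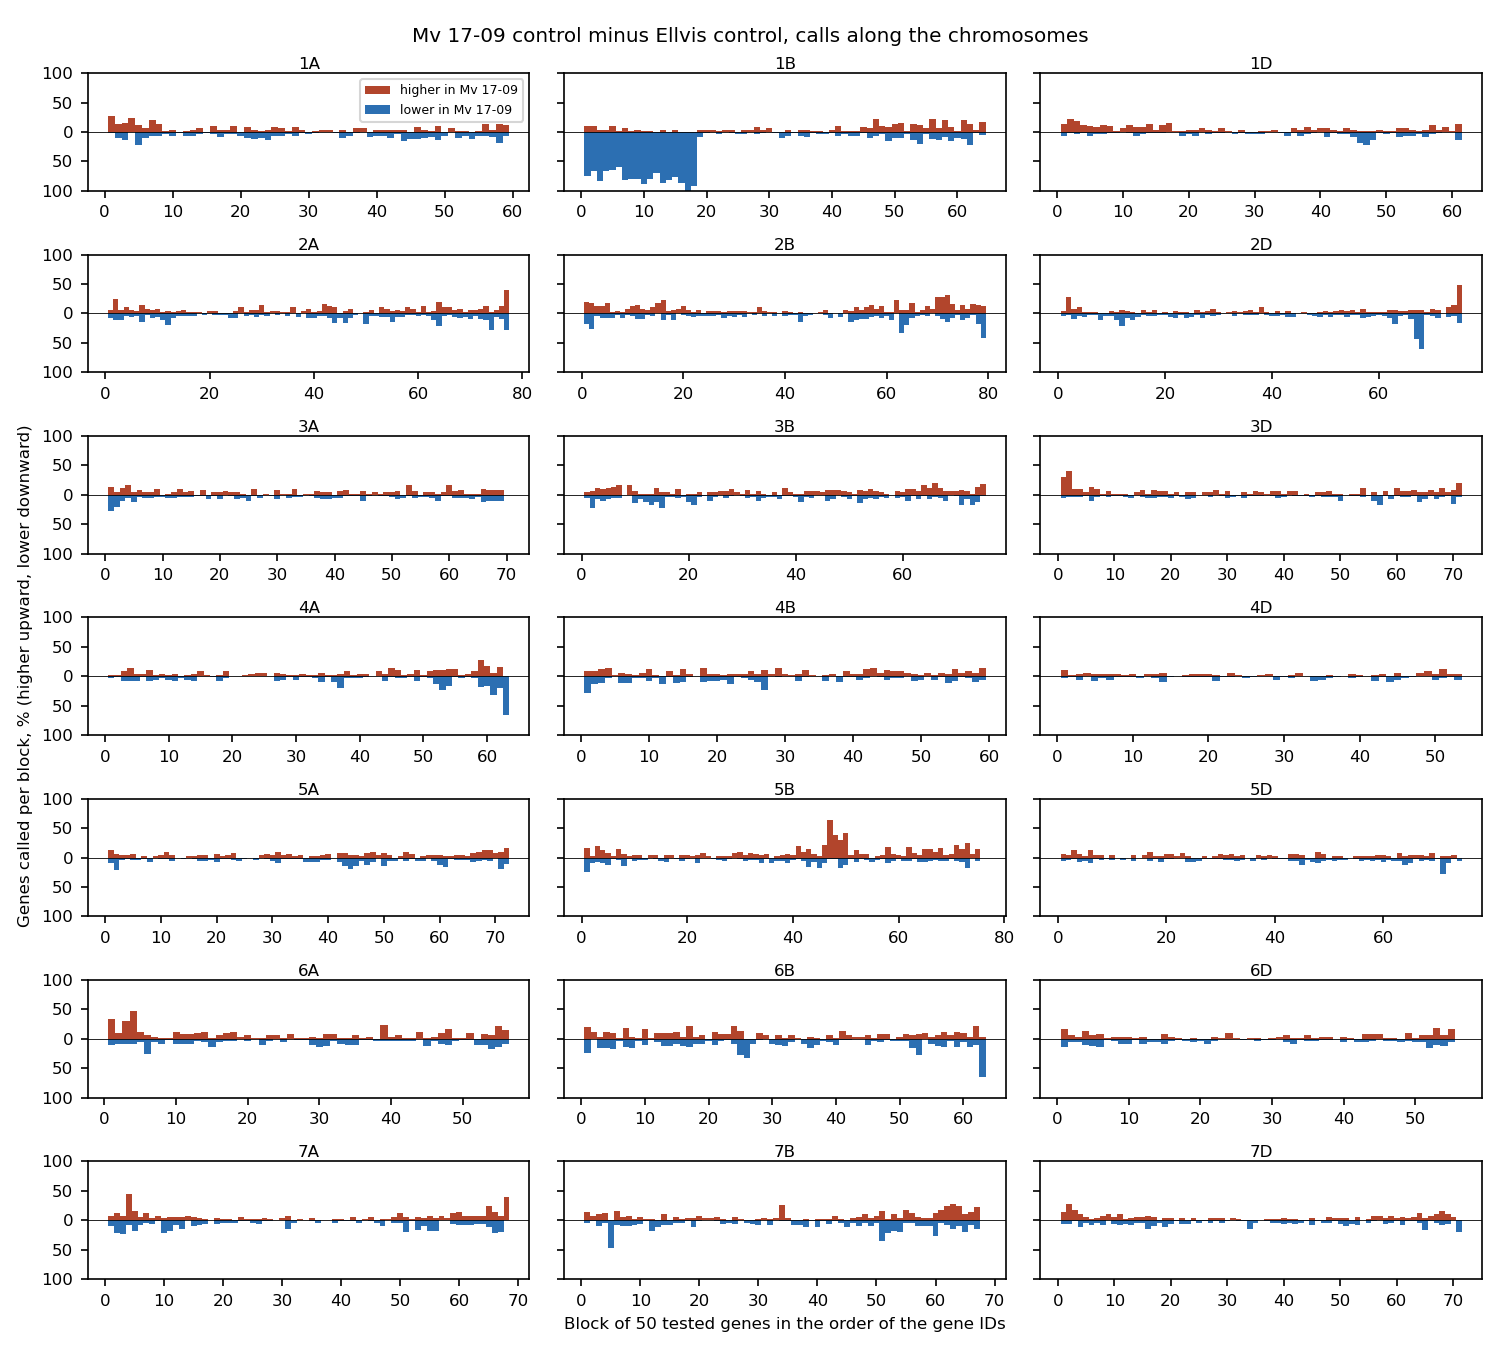
Share of genes called higher (red, upward) and lower (blue, downward) in Mv 17-09 controls for blocks of 50 tested genes on the 21 chromosomes, in the order of the gene IDs, with fewer genes in the last block of a chromosome. Blocks 1 to 18 of 1B reach 60% to 100% lower, and isolated blocks stand out on 2D, 3D, 5B, 6A, 6B, 7A and 7B.

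For 6 of these 1B genes the A and D copies were listed as well. γ-Tubulin on 1B (TraesCS1B03G0340300; chromosome 1B, 157773697 to 157778920), the base from which microtubules grow, had 1.61, 2.94 and 1.82 CPM in Mv 17-09 controls and 10.2, 17.96 and 18.6 CPM in Ellvis controls (log2 fold change -2.96 ± 0.24, adjusted p = 1.99e-07). The 1A and 1D copies were at 0.09 and 0.27. Its share of the triad was 7.09% in Mv 17-09 controls and 39.6% in Ellvis controls. GCP4 on 1B (TraesCS1B03G0335100), which binds γ-tubulin, had 0.738, 1.89 and 1.498 CPM in Mv 17-09 controls and 6.78, 7.05 and 8.31 CPM in Ellvis controls (-2.42 ± 0.28, adjusted p = 1.06e-05). KIN-13A on 1B had 8.65, 7.50 and 7.29 CPM in Mv 17-09 controls and 19.8, 34.3 and 34.7 CPM in Ellvis controls (-2.002 ± 0.18, adjusted p = 5.81e-07). ABCG15 on 1B (TraesCS1B03G0409400; chromosome 1B, 219946124 to 219952484), a transporter that exports wall lipids in rice, had 2.82, 3.20 and 2.41 CPM in Mv 17-09 controls and 10.7, 13.4 and 11.5 CPM in Ellvis controls (-2.11 ± 0.16, adjusted p = 8.63e-08). The log2 ratio of the triad sums was 0.28 for AML1, AML4, 0.02 for KIN-13A, -0.35 for γ-tubulin, -0.38 for GCP4, -0.31 for villin and -0.03 for ABCG15, each smaller in size than the change of its B copy. Leaving out Ellvis control 1 gave 0.04, -0.13, -0.54, -0.53, -0.50 and -0.15 in the same order. For AML1, AML4 of group 1 the sum was 430, 443 and 409 CPM in Mv 17-09 controls and 220, 400 and 433 CPM in Ellvis controls, and for KIN-13A it was 79.7, 75.1 and 78.7 CPM in Mv 17-09 controls and 59.9, 82.3 and 87.9 CPM in Ellvis controls. The sums of all 6 triads overlap between the cultivars. Without Ellvis control 1 only those of AML1, AML4 overlap, and in the other 5 triads all Mv 17-09 controls lie below Ellvis controls 2 and 3. How reads shared by homoeologs were assigned is not given, so the copies of a triad are not independent measurements. Over all lists, 20 of 145 complete triads had a called copy, 16 of them 1 copy, 4 of them 2 copies and 0 all 3, and in 1 triad, AML1, AML4, copies were called in opposite directions.

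**Figure D4:**
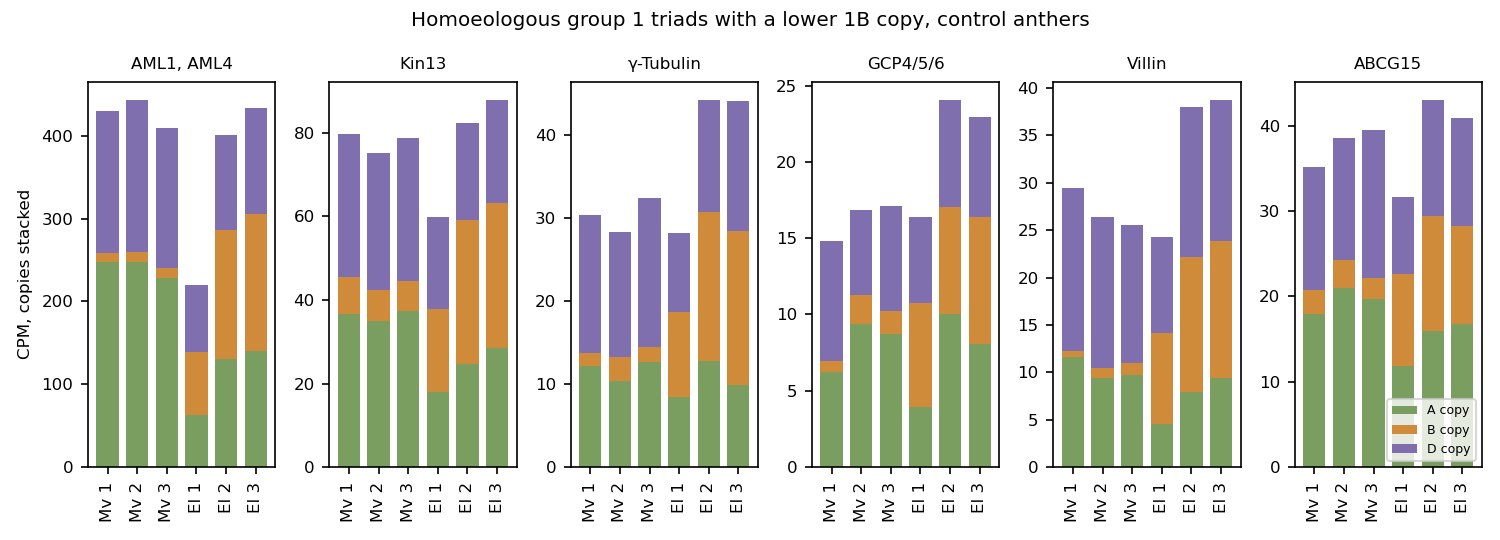
CPM of the A, B and D copies, stacked, in each Mv 17-09 control (Mv 1 to 3) and Ellvis control (El 1 to 3) for the 6 listed triads whose 1B copy was lower, each panel with its own axis. The B copy averaged 2.73% to 10.04% of the triad in Mv 17-09 controls and 31.0% to 39.6% in Ellvis controls.

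To set the unstressed differences beside those under heat, the cultivar difference was also computed in the heat-stressed libraries, which share no library with the control comparison. Of the 49 list members called between the controls, 45 were tested there, 40 had the same sign, 26 were called in the same direction and 0 in the opposite one. Of all calls, 7704 were tested, 92.4% had the same sign and 5607 were called in the same direction. The background there was 9.1% higher and 14.7% lower, or 23.8% called. EB1 on 2B, at 4.19, villin on 1B, at -3.87, and actin-97 on 1B, at -4.66, differed by less than 2-fold between both comparisons. The difference between both effects (control minus heat-stressed) was called in 70 of the 683 list members tested, or 10.2%, where the background is 3.75% higher and 1.46% lower, or 5.21%. The lists were unlike, with 45 of 119 tested genes in the tapetum list and 8 of 80 in the actin list. The meiosis list had 7 of 158 and the spindle list 10 of 341. Among the 45 members called between the controls and tested under heat, the difference was called in 10. This is a description only, since the control value that chose these members is a term of that difference. The formins on 2A and 5B were at 0.23 and 0.08 in heat-stressed libraries, without a call, against 2.26 and 2.39 in the controls, and the EAT1-like gene on 2B was at -0.46 against 1.21.

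**Figure D5:**
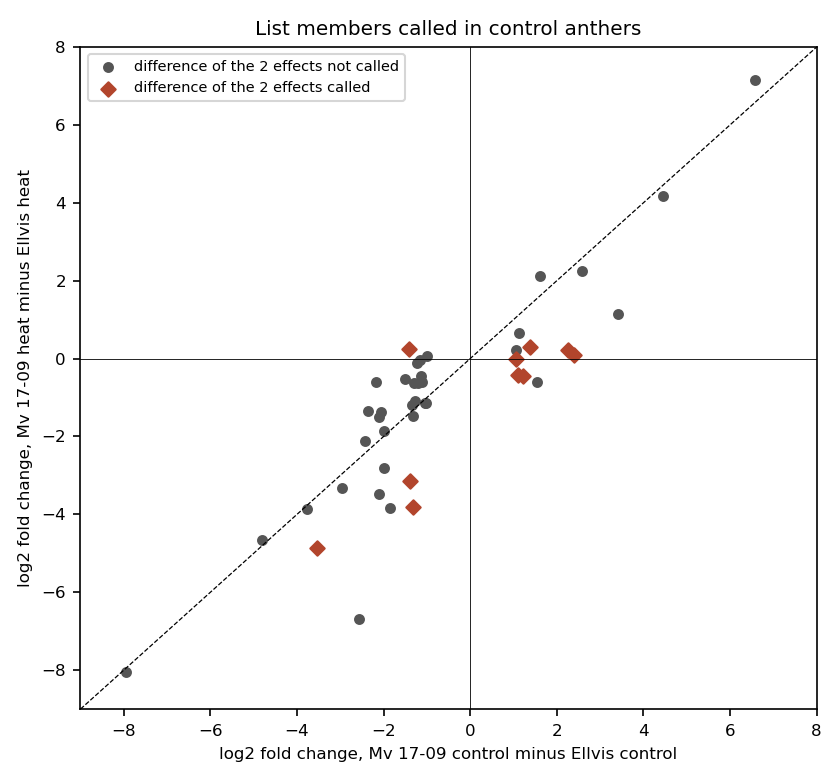
Log2 fold change of Mv 17-09 over Ellvis in control libraries (x axis) and in heat-stressed libraries (y axis) for the 45 called list members tested in both, with the dashed line marking equal values. Diamonds mark the 10 members in which the difference between both effects was called, several of them near 0 on the y axis.

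A gene was counted as silent where the mean of a cultivar's controls was under 0.1 CPM and every control of the other cultivar had at least 1 CPM. This held for 637 of the 266760 gene models in Mv 17-09 and 370 in Ellvis, or for 808 and 635 without Ellvis control 1. The 1B stretch, with 4311 gene models, held 159 of those silent in Mv 17-09 and 3 of those silent in Ellvis. Without Ellvis control 1 it held 198 and 7. In heat-stressed libraries of the same cultivar, 87.0% of the genes silent in Mv 17-09 and 82.7% of those silent in Ellvis were again under 0.1 CPM on average. In the lists this class held MUS81 on 1B, silent in Mv 17-09, and EB1 on 2B, silent in Ellvis. Without Ellvis control 1 it held MUS81 and the 7B formin, both silent in Mv 17-09, and not EB1. Outside the lists, the genes with the smallest p in each direction had control levels far apart. TraesCS6B03G0506800 had 29.4, 30.2 and 29.6 CPM in Mv 17-09 controls and 0, 0.0593 and 0 CPM in Ellvis controls. TraesCS1B03G0957300 had 310, 320 and 348 CPM in Mv 17-09 controls and 2.82, 3.73 and 4.66 CPM in Ellvis controls. In the other direction, TraesCS6D03G0163300 had 0.134, 0.105 and 0.195 CPM in Mv 17-09 controls and 31.1, 39.7 and 41.05 CPM in Ellvis controls. TraesCS1B03G0334900, within the 1B stretch, had 0.201, 0.367 and 0.391 CPM in Mv 17-09 controls and 31.6, 50.2 and 52.9 CPM in Ellvis controls. They are given by their identifiers alone.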

How the data were processed

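RNA of whole anthers was depleted of ribosomal RNA, made into directional libraries (NEBNext Ultra II) and sequenced as paired ends. The reads were checked with FastQC 0.11.8, then trimmed and mapped with CLC Genomics Workbench, against IWGSC RefSeq v2.1, and the authors deposited raw total counts per gene model, without normalization, for 266760 models. Neither the labels nor the methods give the settings for strand, for reads that match several homoeologs or for the counting of reads or fragments, so overlapping, antisense and near-identical genes are uncertain.

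Counts of all 12 libraries in 4 groups were fitted with edgeR 4.0.16 in R 4.3.3 (TMM factors, filterByExpr with min.count 10 and min.total.count 15, quasi-likelihood test), and the contrast was Mv 17-09 control minus Ellvis control. P-values were adjusted by Benjamini-Hochberg over all genes tested, and calls needed both 2-fold or more and an adjusted p below 0.05. Standard errors were derived from the F statistic and are approximate. CPM used TMM-scaled library totals and intervals on counts are not given. The heat-stressed contrast was fitted on the heat-stressed libraries, and the difference between both contrasts in the fit of all libraries. Fits were tested on simulated data.

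Totals of 1831675 to 20846135 counts set the precision, and low genes of Ellvis control 1 are the least certain. The meiosis, spindle, actin and tapetum lists and the qPCR panel are those of the study, matched by identifier. Positions are RefSeq gene positions on the same build, where a single gene matched. The genes named are the 3 called members of each list with the largest change in each direction whose control libraries do not overlap, the 2 members of each list with the highest mean CPM, the panel genes, list genes silent in 1 cultivar and, outside the lists, the 2 genes with the smallest p in each direction. Any other gene was named with its values in view. The comparison, the lists and the rules were chosen with earlier results of these data known. Alternatives were library totals, DESeq2 1.42.0, limma 3.58.1 with voom and sample weights, no filter, the control libraries alone, a replicate block, other thresholds and leaving out each control library.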

Additional observations from a re-analysis of the deposited data

Results flagged for a closer look

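No group has enough libraries for a test of single libraries that stand apart. Many of the genes named by the selection rule were chosen for their control difference. In 16 of the named genes, the difference between Mv 17-09 and Ellvis in control anthers differed from that in heat-stressed anthers. It was tested in edgeR as the difference of both log2 fold changes (control minus heat-stressed, Benjamini-Hochberg over all genes). The same difference was called in 3675 of all genes tested, or 5.21%, and in 70 of the 683 list members tested. Of these list members, 45 lay in the tapetum list, which had 119 tested. The difference is from the fit of all 12 libraries and was not recomputed without Ellvis control 1.

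In the Mei2-like genes this difference was 1.07 for AML2 on 7D (TraesCS7D03G0007200), 1.33 for AML1, AML4 on 1B (TraesCS1B03G0015900), 1.502 on 1A (TraesCS1A03G0016300) and 1.37 on 1D (TraesCS1D03G0008200). AML1, AML4 on 1A was at 1.09 in the controls, or 0.84 without Ellvis control 1, and -0.42 in heat-stressed anthers, so its sign turned. The 1D copy turned as well, from 0.69 in the controls to -0.69 in heat-stressed anthers. In the formins it was 2.31 for 5B (TraesCS5B03G0822900), 2.02 for 2A (TraesCS2A03G0453100) and 2.49 for 5D (TraesCS5D03G0745900). The 5D formin was at -1.31 in the controls, or -0.94 without Ellvis control 1, and -3.80 in heat-stressed anthers.

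In the tapetum list the difference was 1.66 for the EAT1-like gene on 2B (TraesCS2B03G1175100), 1.05 for the 6A copy of bHLH010/bHLH089/bHLH091 (TraesCS6A03G0720200) and 1.74 for MS188 on 2A (TraesCS2A03G0818800). It was 1.70 for ACOS5 on 2B (TraesCS2B03G0757300) and 1.60 for ACOS5 on 2D (TraesCS2D03G0629900), whose control values rest on Ellvis control 1. The control value of MS188 on 2A was -1.40 with that library and -1.06 without it. The summed tapetum markers were 5233 to 6787 CPM in Mv 17-09 heat-stressed libraries and 16517 to 19283 CPM in Ellvis heat-stressed libraries, and their part in these differences was not tested.

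In the qPCR panel it was 5.19 for TaGRAS (adjusted p = 0.0127) and 4.25 for Ta21.9HSP (adjusted p = 0.00316), both at low CPM in the controls. Outside the lists it was 3.45 for TraesCS1B03G0957300, which was at 6.34 in the controls and 2.88 in heat-stressed anthers, and -2.87 for TraesCS1B03G0334900, which was at -7.13 and -4.27.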

How the results depend on the processing

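Directions and calls of the named genes were the same in 545 of 602 recomputed values, lost the call in 34, gained it in 2 (TaCYC without Ellvis control 1, with or without the heat-stressed libraries in the fit) and changed sign in 21, and the causes were not tested. With the criteria of the study's methods (likelihood ratio and Wald tests, adjusted p under 1e-06) 1140 genes were higher and 1576 lower, with 1 and 3 in the meiosis list, 1 and 3 in the spindle list, 1 and 2 in the actin list and 3 and 1 in the tapetum list. At an adjusted p under 0.05 with no fold threshold, 6527 were higher and 7166 lower, with 10 and 24, 13 and 47, 4 and 8, and 11 and 10 in the same order of lists. The 6 control libraries alone gave 3255 higher and 3243 lower, with 2 and 5 in the meiosis list, 3 lower in the actin list and 3 and 3 in the tapetum list. With no filter 7665 genes were lower and 10 tapetum genes higher, and the median of all genes was -0.16. Library totals gave 3 higher tapetum genes. Leaving out single control libraries gave 3486 to 5742 higher and 4343 to 5333 lower genes, 2 to 4 and 6 to 13 in the meiosis list, 3 and 13 to 17 in the spindle list, 2 to 3 and 3 to 5 in the actin list and 3 to 11 and 2 to 12 in the tapetum list. The genes silent in Ellvis numbered 635 without Ellvis control 1 and 370 with it. Of the calls, 45.4% were higher, against 40.3% with library totals, 39.6% with DESeq2, 49.9% with voom and 51.8% without Ellvis control 1.

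Deviations of control libraries with the same replicate number correlated at -0.08, 0.02 and -0.08, and those with different numbers at -0.07 to 0.08. The biological coefficient of variation of Ellvis controls was 0.409 with control 1 and 0.0731 without it. With the Ellvis deviations set mostly by that library, this check cannot show whether the numbers pair the libraries. The replicate block gave 3850 higher and 4816 lower genes, and 3 lower tapetum genes.

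Signs changed where values were near 0 or rested on Ellvis control 1. Without that library, and then also with the controls alone, α-tubulin on 1D (TraesCS1D03G0830200) was at -0.0439 and -0.0520, the actin-depolymerizing factor on 5D (TraesCS5D03G1080100) at -0.16 and -0.17, that on 5A (TraesCS5A03G1126800) at -0.0650 and -0.0729, ACOS5 on 2B (TraesCS2B03G0757300) at 0.35 and 0.34 and ACOS5 on 2D (TraesCS2D03G0629900) at 0.26 and 0.26. With voom the 5D and 5A factors were at -0.11 and -0.0220 and ACOS5 on 2B and 2D at 0.26 and 0.18, and with library totals the 5D factor was at -0.0450. TaACT was at 0.0902 with no filter. Over all single libraries left out, the ranges were -0.0439 to 0.40 for α-tubulin on 1D, -0.16 to 0.20 and -0.0650 to 0.32 for the factors on 5D and 5A, -0.46 to 0.35 and -0.48 to 0.26 for ACOS5 on 2B and 2D, -4.42 to 0.26 for TaNIP, -0.31 to 1.796 for TaN2O and -0.0820 to 0.0818 for TaACT. The depth of Ellvis control 1 limits all low genes.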

Other observations

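Resistance genes of the NLR class, the nucleotide-binding receptors that recognise pathogens, had 12 higher and 5 lower of 73 tested in Mv 17-09 controls, or 15 and 5 of 76 without Ellvis control 1. The shares of 16.4% higher and 6.85% lower stand beside 5.83% and 7.02% of all genes (7.79% and 7.23% without Ellvis control 1), so the lower share is near the background. CBF genes, transcription factors of the cold response, had 3 higher and 0 lower of 6 tested, or 5 and 0 of 7 without it. Both classes come from the curated gene models of the annotation and were looked at after their values were seen. The median log2 fold change was 0.21 for the NLR genes and 1.13 for the CBF genes, beside -0.01 for all genes tested.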
